A study of Mus musculus with 4 samples.

Results

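The voltage-gated sodium and calcium channel genes and the potassium channel genes were asked where KDM5C (also called SMCX) lay on them. The set was taken by symbol from the protein-coding genes of GENCODE M1 on the mm9 assembly: symbols that begin with Scn and a number, with Cacna, Cacnb or Cacng, or with Kcn, a letter and a number. With genes not used here left out, this gave 120 genes of 22225 protein-coding genes, of which 14 were sodium channel, 26 calcium channel and 80 potassium channel genes. The rule reads symbols only, so it also holds genes whose products are not voltage-gated pores: 71 of the 120 belong to the families built around voltage-gated channels, and 49 are inward rectifiers, 2-pore channels, ion-activated channels, accessory subunits of the Kcne series or gamma subunits. A gene was called bound when the midpoint of a KDM5C peak lay within 1 kb of any of its annotated transcription start sites.

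KDM5C occupancy was measured with ChIP-Seq at day 2 of differentiation in male mouse epiblast-like cells (EpiLCs). The labels give the strain as C57BL/6J, whereas the methods describe mutant mice on 129/Sv or mixed backgrounds, so the strain is uncertain. WT cells carried an intact Kdm5c gene and KO cells carried a Kdm5c deletion whose mutant protein was, by the study's account, barely detectable. Cells of both genotypes also carried a truncated Tsix, the antisense repressor of Xist, on their single X chromosome (XΔTsixY), so no group was free of that mutation. Each genotype had an immunoprecipitated and an input sample and contributed 1 peak list. The labels describe conversion to EpiLCs, whereas the methods place day 2 beyond the EpiLC stage, so the stage is uncertain. The methods describe independent WT lines and a lone KO sample for this antibody, while the series text speaks of technical duplicates. The study's KDM5C read counts at Xist list a further KO replicate, so the number of KO samples is uncertain. The lists hold no read counts. The study states a minimum read number per sample, and scaling factors and reads per replicate for Xist only. The depth behind a channel gene peak is therefore not known here. With 1 list per genotype no replicate error could be given, and no test between genotypes or groups was made. Every interval below is an exact Clopper-Pearson 95% interval over genes or peaks that covers counting error only. Peak lists hold no expression values, so nothing below says whether a channel gene was transcribed, and the labelled cell type could not be checked against markers.

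Sodium channel alpha subunits form the pore that carries the rising phase of the action potential, and beta subunits adjust its gating and placement. Calcium channel alpha1 subunits admit calcium on depolarisation and are trafficked and tuned by alpha2delta and beta subunits, while potassium channels repolarise the membrane or hold it at rest. Most of these genes are known for their use in neurons, muscle and endocrine cells, and KDM5C is known as an eraser of di- and trimethylation at lysine 4 of histone H3 that is often found at CpG-rich promoters.

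Sequences under strong peaks are shown first, because CpG content is the property that bound and unbound channel promoters are set against below. Each is 200 bases of mm9, read on the strand of the gene and chosen to hold no annotated UTR, with every CpG in capitals. The Cacna1b stretch (chr2:24617753-24617952, minus strand) is centred on the summit of the strongest calcium channel peak, in an intron. The Kcns1 stretch (chr2:163994073-163994272, minus strand) is centred on the summit of a peak in coding sequence inside the gene. The Scn1a stretch (chr2:66278898-66279097, minus strand) and the Scn2a1 stretch (chr2:65458714-65458913, plus strand) end at the base before the 5′ end of a neuronal sodium channel gene that had no peak.
Cacna1b: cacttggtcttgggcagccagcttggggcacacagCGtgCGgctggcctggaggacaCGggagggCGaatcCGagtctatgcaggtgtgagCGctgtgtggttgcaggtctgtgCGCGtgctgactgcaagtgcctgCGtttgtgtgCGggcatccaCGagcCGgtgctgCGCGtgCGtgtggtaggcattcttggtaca
Kcns1: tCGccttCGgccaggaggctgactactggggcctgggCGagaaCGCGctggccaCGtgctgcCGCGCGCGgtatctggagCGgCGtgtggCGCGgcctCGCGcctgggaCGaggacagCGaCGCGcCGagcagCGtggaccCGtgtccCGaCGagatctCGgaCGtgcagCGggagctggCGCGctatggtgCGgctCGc
Scn1a: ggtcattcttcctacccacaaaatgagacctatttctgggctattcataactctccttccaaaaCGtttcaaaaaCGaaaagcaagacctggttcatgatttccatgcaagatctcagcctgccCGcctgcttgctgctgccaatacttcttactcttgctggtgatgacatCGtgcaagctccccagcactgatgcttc
Scn2a1: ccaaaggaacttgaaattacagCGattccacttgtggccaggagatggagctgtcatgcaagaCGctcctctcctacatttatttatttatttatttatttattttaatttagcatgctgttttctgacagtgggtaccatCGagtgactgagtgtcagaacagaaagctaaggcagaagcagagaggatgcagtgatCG
The stretches under the Cacna1b and Kcns1 peaks held 15 and 32 CpGs, at a GC content of 63.5% and 73.5%. The stretches before Scn1a and Scn2a1 held 4 CpGs each, at 47.0% and 41.5% GC. The first pair are peak summits and the second pair lie before starts, so they are examples and not a comparison of promoters. Some unbound sodium channel promoters are CpG-rich, as given below.

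KDM5C lay at 31 of the 120 channel genes in WT cells, which is 25.8% (interval 18.3 to 34.6). Among all protein-coding genes the bound share was 24.0%, so the channel genes as a set stood near the background. In the KO list 0 of the 120 genes were bound, where 0.0945% of all protein-coding genes were. The interval of the channel share was 0 to 3.03%, and no promoter or gene-body peak of a channel gene overlapped a KO peak. The KO list held 44 peaks on assembled chromosomes against 6916 in WT, so few overlaps were possible for any set of genes. Potassium channel genes were bound in 23 of 80 (28.8%, interval 19.2 to 40), calcium channel genes in 7 of 26 (26.9%, interval 11.6 to 47.8) and sodium channel genes in 1 of 14 (7.14%, interval 0.181 to 33.9). The 3 intervals overlap one another and each holds the background share.

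Promoters were then compared at similar CpG ratio, the number of CpGs observed over the number expected from base content within 500 bp of the 5′ end. All other protein-coding genes were sorted into 20 bins of that ratio, and the bound share of each channel gene's bin was averaged. On this scale 23.0% of other genes with channel-like CpG ratios were bound, which corresponds to 27.6 genes beside the 31 observed. The corresponding shares were 15.3% for sodium channel genes, 25.8% for calcium channel genes and 23.5% for potassium channel genes. Each of these shares lay inside the interval of its channel group. The share for sodium channel genes was below that of all genes, and their median CpG ratio was 0.376, against 0.555 for calcium and 0.524 for potassium channel genes.

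**Figure D1:**
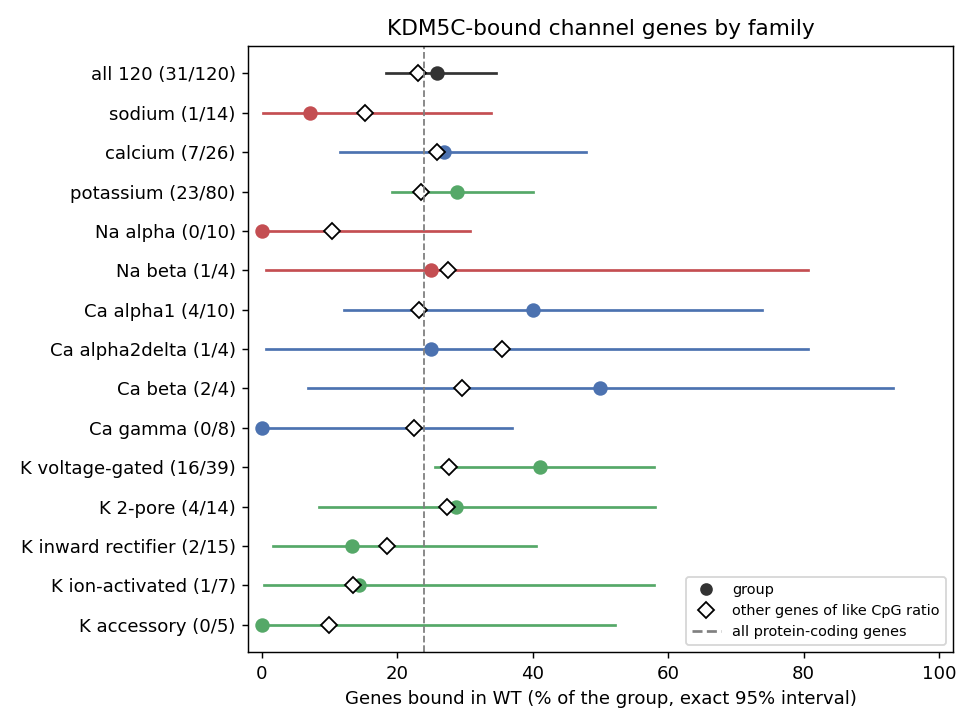
Share of genes bound in WT for each channel family (x axis, percent), with filled circles for the family, horizontal lines for exact 95% intervals, open diamonds for other protein-coding genes of like CpG ratio and the dashed line for all protein-coding genes (24.0%). Voltage-gated potassium channels sit to the right of their diamond at 41.0%, whereas the sodium alpha, calcium gamma and accessory potassium families sit at 0 with wide intervals.

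Within the channel genes, the bound ones had the higher CpG ratio at the 5′ end by median. For 4 of them (Cacna1a, Cacna1d, Kcnc1 and Kcnn2) the peak lay only at an internal start site, which this ratio does not describe. The CpG ratio of the 31 bound genes ran from 0.152 to 0.957 with a median of 0.72 (quartiles 0.558 and 0.825), and that of the 89 unbound genes from 0.119 to 0.951 with a median of 0.427 (quartiles 0.274 and 0.649). The ranges overlapped almost entirely. Of 31 channel genes with a ratio under 0.3, 2 were bound (6.45%, against 2.89% of other genes in that class). The count rose to 7 of 40 from 0.3 to 0.6 (17.5% against 14.6%), to 11 of 30 from 0.6 to 0.8 (36.7% against 38.5%) and to 11 of 19 from 0.8 to 1 (57.9% against 49.0%). Counted with GC content as well, 49 channel promoters were CpG-rich (ratio of at least 0.6 and GC of at least 50%) and 22 of them were bound (44.9%, interval 30.7 to 59.8), beside 44.1% of other CpG-rich promoters.

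**Figure D2:**
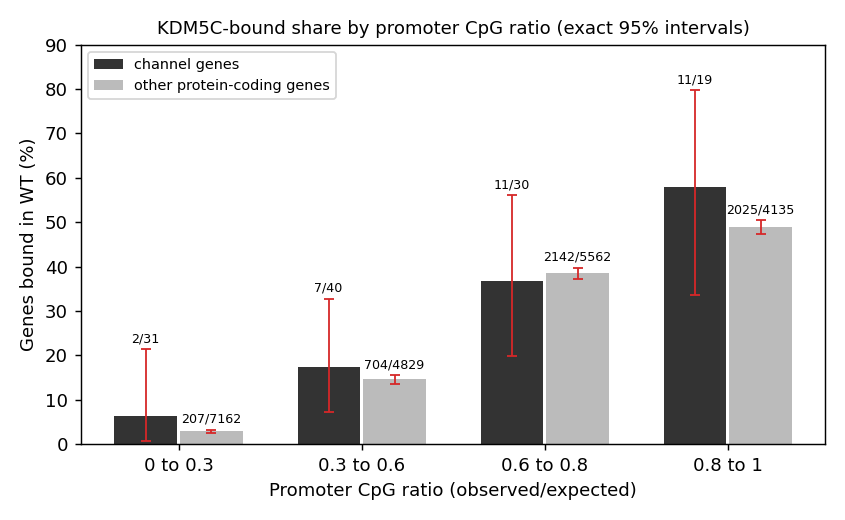
Share of genes bound in WT (y axis, percent) in 4 classes of promoter CpG ratio (x axis), for channel genes (dark bars) and other protein-coding genes (light bars), with exact 95% intervals in red and bound over total above each bar. The 2 sets climb together, from 6.45% and 2.89% in the lowest class to 57.9% and 49.0% in the highest.

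Among sodium channel genes the one bound promoter was that of Scn3b, a beta subunit that modulates gating. Its peak (chr9:40076924-40077247, summit in UTR) had a score of 98 and was enriched 4.11-fold over input. The score is 10 times the −log10 of the peak's q-value, and the median over WT peaks was 82. None of the 10 alpha subunit genes, which include Scn1a, Scn2a1, Scn3a, Scn4a, Scn7a, Scn8a, Scn9a, Scn10a and Scn11a, was bound (interval 0 to 30.8%), beside 10.4% of other genes of like CpG ratio. Scn4b, a beta subunit, was among the unbound sodium channel genes with the highest CpG ratios (0.77), and its nearest WT peak lay 16351 bp away. The beta subunit gene Scn2b was also unbound. The sodium channel set thus had no peak at any of its 3 CpG-rich promoters, a count too small to set against the 44.1% of other CpG-rich promoters.

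Calcium channel genes were bound at 4 of 10 alpha1 subunits, 1 of 4 alpha2delta subunits, 2 of 4 beta subunits and 0 of 8 gamma subunits. Other genes of like CpG ratio were bound at 23.2%, 35.4%, 29.5% and 22.4%, in the same order. The strongest was Cacna1b, the pore of the presynaptic N-type channel, at a score of 486 and 5.70-fold enrichment (chr2:24617575-24618737). Cacnb2, a beta subunit that brings alpha1 subunits to the membrane, followed at 378 and 7.74-fold (chr2:14525551-14526739). Another gene, Gm10849, starts 93 bp from the midpoint of the Cacnb2 peak, so the peak cannot be given to Cacnb2 alone. The other 5 bound calcium channel genes had scores from 36 to 106. Cacna2d1, an alpha2delta subunit bound by gabapentin, had 106, and Cacna1a, the P/Q-type pore, had 76. Cacnb4, another beta subunit, had 75, Cacna1d, an L-type pore, had 54 and Cacna1h, a T-type pore, had 36. At Cacna1a and Cacna1d the peaks lay at internal start sites and not at the 5′ end, and the Cacna1a 5′ end had the lowest CpG ratio of any bound channel gene (0.152). Cacna1i, a T-type pore (ratio 0.951), Cacng4, a gamma subunit that accompanies AMPA receptors (0.93), and Cacna2d3, an alpha2delta subunit (0.822), were the unbound calcium channel genes richest in CpG. Their nearest WT peaks lay 31930, 230917 and 246254 bp away. The other unbound members were Cacna1c, Cacna1e, Cacna1f, Cacna1g, Cacna1s, Cacna2d2, Cacna2d4, Cacnb1, Cacnb3, Cacng1, Cacng2, Cacng3, Cacng5, Cacng6, Cacng7 and Cacng8.

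Most of the bound potassium channel genes encode voltage-gated subunits. KDM5C lay at 16 of 39 of these (41.0%, interval 25.6 to 57.9), where 27.6% of other genes of like CpG ratio were bound, a share inside that interval. The remaining potassium channel families had 4 of 14 bound among 2-pore channels (27.4% at like CpG ratio) and 2 of 15 among inward rectifiers (18.5%). They had 1 of 7 among ion-activated channels (13.4%) and 0 of 5 among Kcne accessory subunits (9.93%). Taken over all 3 ions, the voltage-gated families had 24 of 71 bound (33.8%, interval 23.0 to 46.0, beside 25.1% at like CpG ratio), and the other families 7 of 49 (14.3%, interval 5.94 to 27.2, beside 20.1%). The intervals of the 2 sets overlap between 23.0% and 27.2%.

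The voltage-gated potassium channels were uneven among themselves. The Shaker, Shab, Shaw and Shal subfamilies (Kcna to Kcnd) had 9 of 17 bound (52.9%, interval 27.8 to 77.0), beside 27.1% at like CpG ratio, which lies just below that interval. Electrically silent modifier subunits (Kcnf, Kcng, Kcns and Kcnv), which form channels only together with other voltage-gated subunits, had 6 of 10 bound (60.0%, interval 26.2 to 87.8), beside 24.5%, again just below the interval. By contrast, none of the 8 ether-a-go-go genes (Kcnh1 to Kcnh8) was bound (interval 0 to 36.9%), although 5 of them have CpG-rich promoters and 28.5% of other genes of like CpG ratio were bound, a share inside the interval. Among the Kcnq genes, which carry the M-current, Kcnq5 was bound and Kcnq3 was not. Both pools were not planned as groups, and no allowance was made for the number of groups looked at. Taken singly, the interval of every subfamily in the pools held its share at like CpG ratio. These subfamilies are small, and their contrasts were not tested.

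Kcnc1, whose product lets interneurons fire fast, had one of the strongest promoter peaks of a channel gene, at a score of 643 and 12.8-fold enrichment. The midpoint of the Kcnc1 peak lay within 1 kb of an internal start site but not of the 5′ end. This peak and those of Cacna1b, Kcng3 and Cacnb2 were among the 5 promoter peaks at or above the 90th percentile of WT scores (320). A promoter peak of that score stood at 4.17% of channel genes and 2.8% of other protein-coding genes.

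Silent subunits made up much of what came next. Kcng3 had a score of 440 and 8.38-fold enrichment (chr17:84029973-84030950), Kcnf1 had 319 and 7.91-fold (chr12:17182339-17183655), just under that percentile, and Kcng2 had 285 and 6.48-fold. Kcnd3, a carrier of the transient A-type current, had 245, and Kcnq5 had 235. Kcnn2, a small-conductance calcium-activated channel that shapes the afterhyperpolarisation, had 198 in a peak 2273 bp wide at an internal start site. Kcna7, a Shaker channel, had 196, and Kcng1 had 140. The bound potassium channel genes below these had scores from 22 at Kcnj12 to 132 at Kcna3 and Kcnk5. In falling order, those between them included Kcnc4, Kcnj4, Kcns2, Kcnk1, Kcnk6, Kcnd2, Kcna6, Kcnv2 and Kcnk3. For Kcnd3, as for Cacnb2, the start of another annotated gene lay within 1 kb of the midpoint of the strongest peak.

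**Figure D3:**
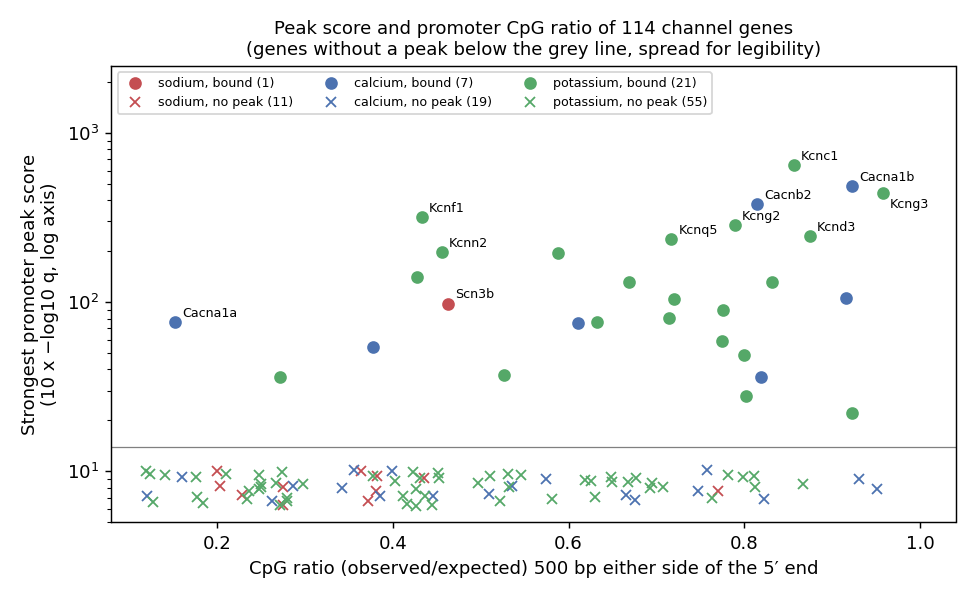
Score of the strongest promoter peak (y axis, log scale) against promoter CpG ratio (x axis) for 114 of the channel genes, coloured by ion, with bound genes as circles and genes without a promoter peak as crosses below the grey line. Bound genes in the plot run from a score of 22 to 643, and crosses extend to a CpG ratio of 0.951, so a high ratio did not by itself come with a peak.

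The richest unbound potassium channel promoters were those of Kcnk9, a 2-pore leak channel (ratio 0.866), Kcnh2, the ether-a-go-go channel of cardiac repolarisation (0.812), and Kcnq3, a subunit of the M-current channel (0.811). Their nearest WT peaks were 263794, 36275 and 291583 bp away. The other unbound genes included Kcna1, Kcna2, Kcna4, Kcna5, Kcna10, Kcnb2, Kcnc2, Kcnd1, Kcng4, Kcns1, Kcns3 and Kcnv1, the 7 further Kcnh genes, the 10 unbound Kcnk genes (with Kcnk9 counted), 13 Kcnj genes, 6 Kcnn, Kcnt and Kcnu genes and 5 Kcne genes. Over all 89 unbound channel genes the median distance from a start to the nearest WT peak was 108 kb. It was within 5 kb in 6 and within 100 kb in 42.

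The 3 channel genes on the X chromosome were all unbound: Cacna1f, an L-type pore of the retina (CpG ratio 0.16), Kcnd1, an A-type channel (0.25), and Kcne1l, an accessory subunit (0.416). The bound gene nearest the 1 kb limit was Kcnv2, a silent subunit of photoreceptors, at 982 bp and a score of 36. The unbound gene nearest to it was Kcna1, a Shaker channel of axons, whose peak lay 2653 bp from its start with a score of 137.

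Peak scores at bound channel promoters overlapped those at other genes. The median score of the strongest peak was 106 (quartiles 67 and 240) at the 31 bound channel genes and 90 (quartiles 53 and 177) at the 5312 other bound genes. Median fold enrichment was 4.39 against 3.77, and median peak width 603 against 548 bp. These ranges overlap widely, and 19 of the 31 strongest peaks lay above the WT median score. With the peak nearest the start taken instead of the strongest, the median score was 90 at channel genes and 88 at other genes.

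By median, peaks at bound channel genes lay further downstream than those at other bound genes. The midpoint of the strongest peak lay downstream of the start in 22 of 31 bound channel genes (71.0%), beside 60.3% of other bound genes, and the median signed distance was 240 bp downstream against 48 bp. The summit fell in the gene's own coding sequence in 15 of 31 (48.4%, interval 30.2 to 66.9), beside 22.5% of other bound genes (interval 21.4 to 23.6). Kcnc1, Kcng3 and Kcng2 were among these 15. Bound channel genes also held more coding sequence near their 5′ ends, with a median of 244 coding bases within 1 kb against 81. Where that window held at least 500 coding bases, the summit was in coding sequence in 6 of 7 channel genes and 65.1% of 453 other genes. Below 500 bases it was in coding sequence in 9 of 24 channel genes (37.5%, interval 18.8 to 59.4) and 18.5% of 4859 other genes.

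**Figure D4:**
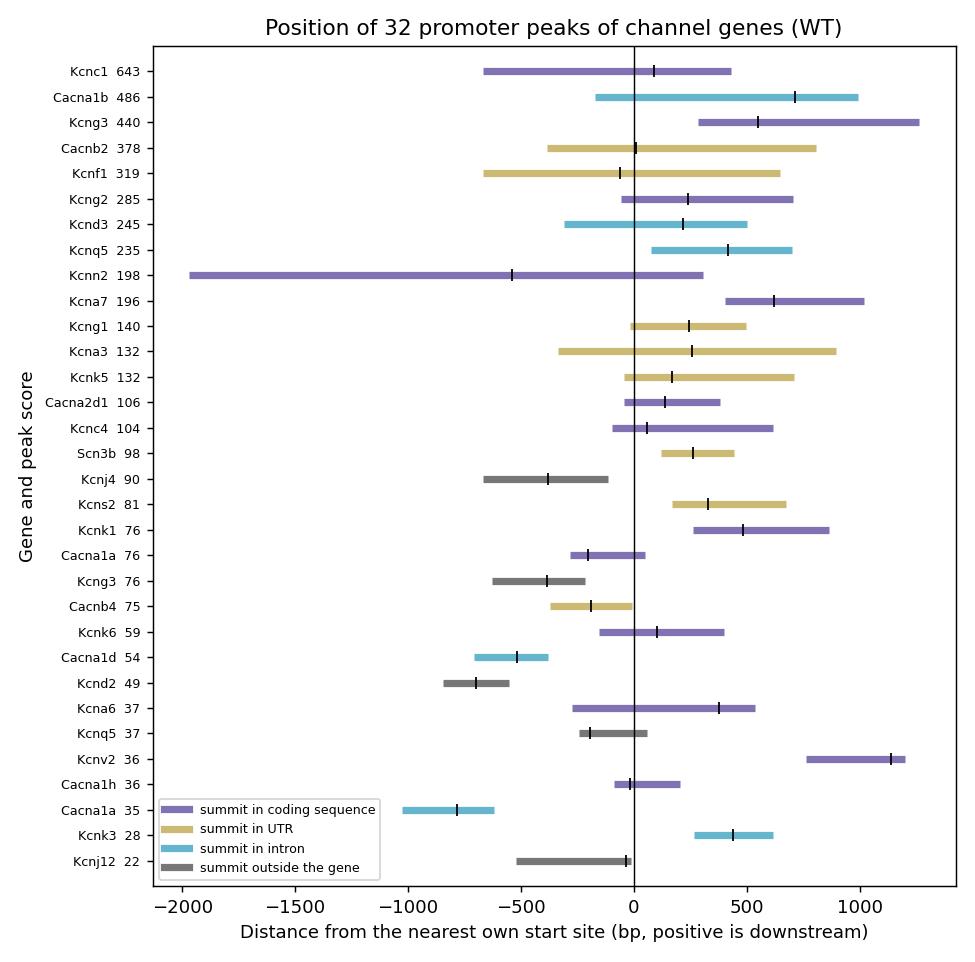
Promoter peaks of bound channel genes (32 of 35), ordered by score (y axis), as bars along the distance from the gene's nearest start site (x axis, bp, downstream positive), with ticks at the summits and colours for the annotation under the summit. Of all 35 summits, 15 lie in coding sequence, 8 in UTR, 6 in introns and 6 outside the gene, and 34 of the 35 peaks were CpG-rich.

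KDM5C peaks inside channel genes, more than 1 kb from any start of the gene, occurred in 12 of the 120 genes (10.0%, interval 5.27 to 16.8), where 4.13% of all protein-coding genes had one. Channel genes are long, with a median of 36.3 kb against 15.5 kb, and among other genes of similar length (20 bins) the share was 5.74%, just above the lower end of that interval. Of the 14 such peaks, 10 had summits in coding sequence (71.4%, interval 41.9 to 91.6), beside 44.0% of 1048 gene-body peaks of other genes, a share inside the interval. The shares were 2 of 14 sodium, 3 of 26 calcium and 7 of 80 potassium channel genes.

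The 3 strongest of these peaks reached the top 10% of WT scores, and all 3 lay in coding sequence. Kcns1, a silent subunit of sensory neurons, had a score of 1262 and 14.4-fold enrichment (chr2:163993469-163994702) and rank 27 of the 6916 WT peaks on assembled chromosomes, with its midpoint 2764 bp from the start. The stretch printed above for Kcns1 is its summit. Kcnk3, an acid-sensitive 2-pore channel, had 440 and 7.45-fold (chr5:30924268-30925346) at 34264 bp from its start, against a score of 28 at its own promoter. Kcnk12, a 2-pore channel, had 335 and 5.87-fold (chr17:88145187-88146313) at 51584 bp. Gene-body peaks in the top 10% thus stood in 3 of the 120 channel genes. The share was 0.459% among all protein-coding genes and 0.56% among other genes of similar length. The others were in Kcnj9, Kcnn4, Cacna1b, Kcna1, Cacna1c, Scn8a, Cacng8, Kcnj14 and Scn2b, with scores between 30 and 300. The stronger Cacna1c peak lay 175 bp from the start of Dcp1b. Counting promoter or gene-body peaks, 41 of the 120 genes had a KDM5C peak (34.2%, interval 25.8 to 43.4), where 26.9% of all protein-coding genes had one, a share inside the interval and not matched for CpG ratio or length.

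Short motifs were then counted within 1 kb of the 5′ end, on both strands. The RE1 element, read by the repressor REST at many neuronal genes, was searched as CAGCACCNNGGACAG with up to 2 mismatches in the 13 fixed bases. It was found at 27 of 120 channel promoters (22.5%) and 12.3% of all protein-coding promoters. By ion the counts were 5 of 14 sodium, 5 of 26 calcium and 17 of 80 potassium channel genes. Matches without a mismatch stood at 5 channel promoters (4.17%) and at 0.238% of all promoters. Of these 5 genes 1 was bound. Among all protein-coding genes 16 of the 53 with such a match were bound, where 24.0% of all genes were. The 5 matches are printed with matched fixed bases in capitals.
Scn3b: CAGCACCacGGACAG
Scn2a1: CAGCACCacGGACAG
Kcnk12: CAGCACCgcGGACAG
Kcnt1: CAGCACCgcGGACAG
Kcnh4: CAGCACCctGGACAG
The Scn3b match (chr9:40077329-40077343, minus strand) lay 273 bp from the summit of its peak and outside the peak. Scn2a1 (chr2:65458023-65458037, plus strand), Kcnk12 (chr17:88197926-88197940, plus strand), Kcnt1, a sodium-activated channel (chr2:25719596-25719610, minus strand), and Kcnh4 (chr11:100620325-100620339, minus strand) had no promoter peak. Bound and unbound channel promoters held the RE1-like pattern at similar shares, 8 of 31 (25.8%) and 19 of 89 (21.3%).

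Motifs were also counted around summits. Within 250 bp of the summit the RE1-like pattern was present in 6 of 35 promoter peaks of channel genes (17.1%) and 5.84% of all WT peaks. The peaks were those of Cacna1b, Kcng3, Kcnq5, Kcnn2, Kcng1 and Kcnk5, and the match at Cacna1b (chr2:24617605-24617619, plus strand) was without a mismatch. This match lay inside the Cacna1b peak but more than 1 kb from the 5′ end, so it was not among the 5 above.
Cacna1b: CAGCACCacGGACAG
Kcng3: CAGCtCCcgGGACAG
Kcnq5: CAGCACgttGtACAG
The E-box CACGTG was present in 9 of the 35 (25.7%) and 26.8% of all WT peaks, and the E2F6-like TCCCGC in 23 of the 35 (65.7%) and 55.7%. At promoters, CACGTG was held by 23.3% of channel genes and 27.9% of all protein-coding genes, and TCCCGC by 66.7% and 55.4%. CACGTG stood at 29.0% of bound channel promoters and 41.3% of all bound promoters. A match is a string of letters, and binding of REST or of any other factor was not measured here.

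Genes outside the set give it a scale. Of 37 related channel genes, which covered pacemaker, calcium-activated BK, sperm and leak channels with cytoplasmic and scaffolding partners, 8 were bound (21.6%, interval 9.83 to 38.2, beside 22.3% at like CpG ratio). Kcnip3, a calcium sensor that binds Kcnd channels, had the highest score among them at 384, Hcn3, a pacemaker channel, had 168 and Dpp6, a partner of Kcnd channels, had 154. Of 48 glutamate and GABA receptor genes 7 were bound (14.6%, interval 6.07 to 27.8), beside 23.8% at like CpG ratio. This interval overlaps that of the voltage-gated families (23.0 to 46.0), and gene-body peaks were present in 7 of the 48 receptor genes (14.6%), beside 12 of the 120 channel genes.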

How the data were processed

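KDM5C ChIP-Seq was analysed from 1 deposited peak list for WT and 1 for KO EpiLCs. The authors aligned reads to mm9 with Bowtie (1.1.2 per the labels' processing notes, where the methods give another release), kept unique alignments and called peaks against input with MACS2 2.1.0.20140616, retaining them by q-value and enrichment. For each peak the authors deposited a score (10 times the −log10 q-value, decimals dropped), a fold enrichment ratio over input, −log10 p-value and −log10 q-value, and a summit offset. Unique alignment can lose repeated sequence, and calling WT peaks on more samples than KO peaks, as the methods describe, can leave the KO list short. The deposited lists give no counts, so the depth behind each channel gene peak is not known here. The study states a minimum read number per sample, and scaling factors and reads for Xist.

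The reference was NCBIM37, the same assembly as mm9, with GENCODE M1. Gene models of 1 symbol on 1 chromosome were merged, so 123 models gave 120 genes. Peaks on chromosomes 1 to 19, X and Y were used, and coordinates count from 1. CpG ratio was taken over 500 bp either side of the 5′ end. Other genes were averaged over 20 bins of CpG ratio, or of gene length for gene-body peaks. Groups came from sample titles. No comparison between genotypes was tested, because there is a single list for each.

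Genes were named by rule: the 10 bound genes of highest score per ion, those on X, those nearest the 1 kb limit, the 3 unbound genes of highest CpG ratio per ion, and those with a gene-body peak in the top 10% by score. Other genes are listed by symbol or named with few values after their values were seen, as examples of a count. Some genes and sequences that meet this rule are not reported here. The related channel genes were listed by hand and the receptors taken by symbol. The members and lists were chosen with earlier results of these data known. The limit of 500 coding bases, the count of motif matches without a mismatch and the length bins were chosen after seeing the data. Windows, starts, score limits and CpG windows were varied. Assignment and motif search were tested on simulated data. Python 3.11.15, NumPy 2.4.6, pandas 2.3.3, SciPy 1.17.1, pysam 0.24.0 and matplotlib 3.10.9 were used.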

Additional observations from a re-analysis of the deposited data

How the results depend on the processing

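Of 54 alternatives over 7 counts, shares or medians, 46 stayed within 1.5 times the reported count, or within its interval. The score limit moved the rest. With scores at or above the WT median (82), 19 channel genes were bound (15.8%), beside 12.2% at like CpG ratio. These included 3 calcium (11.5%) and 15 potassium (18.8%) channel genes. The share of other protein-coding genes at this limit lay above the calcium and sodium (7.14%) shares. It lay below the potassium share and that of all channel genes. With scores at or above the 90th percentile (320), 5 channel genes were bound (4.17%, beside 2.8% of other protein-coding genes). These were 0 sodium, 2 calcium (7.69%) and 3 potassium (3.75%) channel genes. Fewer peaks enter at a higher limit by construction. A window of 500 bp left 24 bound genes (20.0%, beside 21.9% of other protein-coding genes). The 5′ end alone left 27, without Cacna1a, Cacna1d, Kcnc1 and Kcnn2 (22.5% beside 22.1%), and windows of 2 kb left 31 (25.8% beside 25.1%). The share at like CpG ratio otherwise ran from 20.7% to 25%, which includes bins crossed with the number of start sites, an alternative chosen after seeing the data (23.1%). No channel gene was bound in KO within 2 or 5 kb. The share of all protein-coding genes was not counted at those windows, and within 1 kb it was 0.0945%. With 44 KO peaks on assembled chromosomes, a count of 0 was likely for any set of this size.

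No paired analysis was possible because the files analysed hold 1 list per genotype, with no values per replicate. Without the depth behind each list, a missing peak does not show that KDM5C was absent, and the KO list, called from a single sample by the methods, was short. Nearest-gene assignment cannot separate genes that share a start region.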
